A study of Mus musculus with 3 samples.

Results

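The genes described here are 6 Hoxa homeobox genes (Hoxa3, Hoxa5, Hoxa6, Hoxa7, Hoxa9 and Hoxa10) with Meis1 and Pbx3, which encode cofactors of HOX proteins. They were chosen by name from 17742 genes named on the array, and all 8 were measured, each by 1 probe. The cells were lines of mouse myeloid leukaemia from the BXH-2 strain, labelled as bone marrow. The sensitive group was 2 arrays of the parental line B117P, and the resistant group was 1 array of B117HS. B117HS was derived from the parent by about 10 weeks of growth in stepwise higher cytarabine (Ara-C), a nucleoside analogue that blocks DNA synthesis. The labels put its IC50 at about 10 times the parental value. The labels do not say whether the resistant cells were under drug when RNA was taken, and the pair stands for 1 parental leukaemia and 1 selected line.

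HOXA proteins bind DNA through a homeodomain, mostly in complexes with PBX and MEIS proteins, whose own homeodomains belong to the TALE class. In blood, the posterior Hoxa genes and Meis1 are active in stem and progenitor cells and are turned down as cells mature, and their sustained expression blocks differentiation in several myeloid leukaemias. BXH-2 mice carry a retrovirus that causes myeloid leukaemia by insertion, and Hoxa7, Hoxa9 and Meis1 are known insertion sites in that strain. MLL and menin maintain Hoxa transcription in leukaemia, and Polycomb complexes repress it.

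Hoxa5, Hoxa7 and Hoxa9 were lower in the resistant cells than in their parent, and none of the 8 genes was called higher on the deposited values. Hoxa7 moved from 1406 units or more on the sensitive arrays to 76.2 on the resistant array. Hoxa5 and Hoxa9 went to readings near 0. Hoxa3, Hoxa6, Hoxa10 and Meis1 read 25 units or less on all 3 arrays, so these probes could show little of a further fall. Pbx3 was higher in the resistant cells by less than the size asked, and was called higher once the arrays were put on a common scale.

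Because Hoxa5, Hoxa7 and Hoxa9 fell together, the bases just upstream of their starts are shown. Each window is the 250 bases before the RefSeq gene start (GRCm38.p6), on the minus strand, read 5′ to 3′. The windows are chr6:52204588-52204837 for Hoxa5, chr6:52218574-52218823 for Hoxa7 and chr6:52227371-52227620 for Hoxa9. Capitals mark a match to 1 of 4 motifs searched on both strands: TGATTNAT (a HOX-PBX site), TGACAG (a MEIS site), CCAAT and TATAAA.
Hoxa5: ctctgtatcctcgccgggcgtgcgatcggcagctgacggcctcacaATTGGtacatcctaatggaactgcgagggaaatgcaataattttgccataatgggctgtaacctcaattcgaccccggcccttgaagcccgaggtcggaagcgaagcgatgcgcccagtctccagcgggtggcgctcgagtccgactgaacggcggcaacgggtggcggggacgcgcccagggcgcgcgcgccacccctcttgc
Hoxa7: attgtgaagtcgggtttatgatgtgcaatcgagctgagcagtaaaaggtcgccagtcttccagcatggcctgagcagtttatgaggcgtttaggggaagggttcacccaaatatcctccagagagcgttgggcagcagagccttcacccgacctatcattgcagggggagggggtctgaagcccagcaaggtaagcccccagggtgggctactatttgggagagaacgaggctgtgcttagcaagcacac
Hoxa9: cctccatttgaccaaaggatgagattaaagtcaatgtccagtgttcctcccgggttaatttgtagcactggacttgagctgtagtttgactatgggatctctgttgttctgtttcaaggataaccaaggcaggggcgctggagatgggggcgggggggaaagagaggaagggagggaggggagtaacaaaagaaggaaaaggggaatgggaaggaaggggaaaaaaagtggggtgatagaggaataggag
The only match in these 3 windows was a CCAAT on the opposite strand in Hoxa5, 204 bases before the start, a motif found in 33.8% of 32851 mouse promoter windows of the same length. TGATTNAT was found in 2.8% of all windows, TGACAG in 15.9% and TATAAA in 12.4%. The windows differed in CpG content. Hoxa5 had 28 CG pairs with 63.6% G and C, Hoxa7 had 7 with 54.8%, and Hoxa9 had 3 with 49.6%, against a median of 6 CG pairs and 52.4% over all windows. RefSeq windows were matched for 7 of the 8 genes, and Pbx3 had no entry. Among the genes not called lower, CCAAT was found for Hoxa6, Hoxa10 and Meis1, TGACAG for Hoxa3 and TATAAA for Hoxa10. Their windows held 24 CG pairs for Hoxa6, 18 for Hoxa3, 13 for Meis1, and 20 or 7 for Hoxa10, by start. A tie between window content and the differences was not tested.

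The resistant array was dimmer than the others, with a median intensity of 24.9 against 58.4 and 72.5 units over 26423 probes. Intensities are background-subtracted spot brightnesses with no detection flags in the table, so a reading near 0 cannot be told from a failed spot. Differences are given as log2(intensity + 50), resistant minus the mean of the sensitive arrays, which understates the change of dim genes. A gene was called when limma's adjusted p (Benjamini-Hochberg over all genes) was under 0.05 and its value lay at least 1 log2 unit above both sensitive arrays or at least 1 below both. A second scale matched the arrays on 6184 bright probes. It raises a bright gene on the resistant array by 0.77 and moved the median difference of all genes from -0.33 to -0.06. Below, "fell" and "rose" stand for a call on each of the scales, and differences are on the deposited scale unless stated. The background on the deposited scale was 18.5% of genes called lower and 5.22% called higher, and on both scales together 8.29% lower and 5.20% higher. The labels do not state that the B117P arrays were separate cultures, so a p-value here reflects only how those arrays differ, possibly for technical reasons. It also takes the single B117HS array to be as variable as they are. Most weight lay on a spread pooled over all genes (11.2 prior degrees of freedom), and little on the gene's own (1). All 10 myeloid markers were measured, none at 10 units or less on every array, and they moved in both directions. Of these 10, 2 rose, the granule protease genes Elane (272 and 350 to 11153 units) and Ctsg (12900 and 12593 to 28196), and 1 fell, Spi1 (634 and 591 to 109). Itgam (1318 and 2389 to 443) and Csf3r (277 and 446 to 66.9) were called lower as deposited only, and Mpo and Prtn3 read 19231 units or more throughout. The summed myeloid signal was 119823 and 130517 in B117P and 149393 in B117HS, most of it from Mpo. The summed signals of 4 B-lineage markers (333 and 351 against 266 units), 5 T-lineage markers (322 and 286 against 115) and 3 erythroid markers (113 and 105.5 against 51.3) were lower on the resistant array as deposited. All marker sums given here are of deposited values, without allowance for the dimmer array. The median differences of these lists were -0.16, -0.22 and -0.41 as deposited, and 0.07, -0.29 and -0.19 after scaling, in that order. Among the B-lineage markers Ebf1 nevertheless rose (8.70 and 15.8 to 137 units), and Cd79a (288 and 257 to 94.9) was called lower as deposited only. For 6 stromal and endothelial markers the sums were 1249 and 1345 against 2784, and the higher sum came from Kdr, which rose (171 and 200.5 to 1165 units), and Pecam1 (708 and 824 to 1590), which was called after scaling alone. Pdgfrb fell (261 and 203 to 23.3), and the resistant reading of Col1a1, Col1a2 and Cdh5 lay below both sensitive readings without a call. Their part in the differences below was not tested. In a culture measured as a whole, fewer cells of a type and less RNA per cell cannot be told apart.

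Hoxa7, Hoxa5 and Hoxa9 fell, which is 3 of 8 genes or 37.5%, against the background of 18.5% on the deposited scale and 8.29% on both scales. The median difference over the 8 genes was -0.44 as deposited and -0.46 after scaling, against -0.33 and -0.06 over all genes. With a floor of 50 units in place of the offset the calls of Hoxa7, Hoxa5 and Hoxa9 were lost on the adjusted p (0.11, 0.080 and 0.37), when 26 genes of the whole array were called lower. The resistant array read below both sensitive arrays for 6 of the 8 genes and above both for 2, Hoxa6 and Pbx3. The share of all genes in the same order was not counted, and the resistant array was dimmer as a whole. No gene of the 8 was called higher in limma as deposited, and 1 of them, Pbx3, was higher at an unadjusted p under 0.05. Of all 17742 genes, 1802 were higher at that p.

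**Figure D1:**
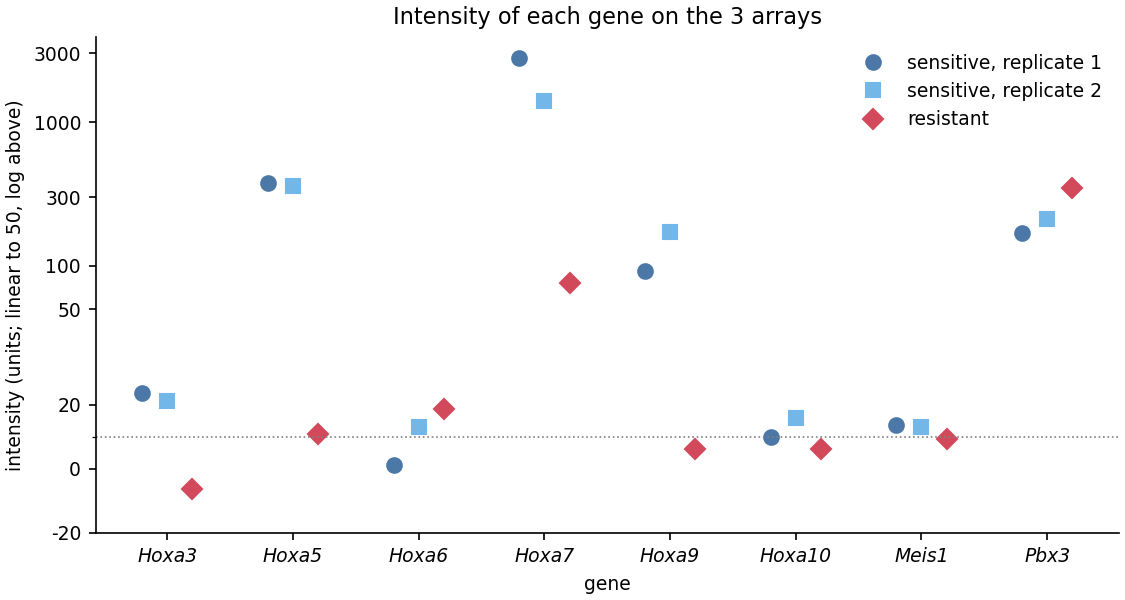
Intensity of each gene (vertical axis, units, linear up to 50 and logarithmic above) on the 2 sensitive arrays and the resistant array, 1 point per array; the dotted line marks 10 units. Hoxa5, Hoxa7 and Hoxa9 are lower on the resistant array (10.9, 76.2 and 6.22 units), Pbx3 is higher (348) and the other genes lie at 25 units or below on every array.

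Hoxa7 encodes a homeodomain factor whose overexpression transforms mouse myeloid progenitors together with Meis1. Its probe read 2774 and 1406 units in B117P and 76.2 in B117HS. The sensitive arrays lay apart by a factor of 1.97, yet the lower of them was still 18.4 times the resistant value and the higher 36.4 times. The log2 difference was -4.01 (SE 0.33, limma adjusted p = 1.45e-06), and -3.49 after scaling (adjusted p = 0.023). Only 0.49% of genes had a lower difference. The gap between its sensitive arrays was also unusual, since 177 of 17742 genes, itself included, differed by as much between them. The pooled spread gives this gap little weight, and with a robust trend the limma adjusted p was 0.000215. After quantile normalization the call was lost on the p alone (-3.51, adjusted p = 0.056).

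Hoxa5, a gene of the cluster's centre, read 375 and 361 units in B117P and 10.9 in B117HS. The sensitive arrays were close to each other and the resistant reading was near 0, so no fold is given. The log2 difference was -2.78 (SE 0.29, limma adjusted p = 1.15e-05), and -2.61 after scaling (adjusted p = 0.010). Hoxa5 kept its call after quantile normalization, where it was the 1 gene of the 8 still called lower.

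Hoxa9 encodes the HOXA protein most closely tied to acute myeloid leukaemia. It read 91.9 and 171 units in B117P and 6.22 in B117HS. The sensitive readings lay above the median of all probes on their arrays and the resistant reading below it. The sensitive arrays differed by 0.64 on the log2 scale. The log2 difference was -1.66 (SE 0.31, limma adjusted p = 0.00089), with -1.34 from replicate 1 and -1.98 from replicate 2, and -1.55 after scaling (adjusted p = 0.043). The call of Hoxa9 was lost with an offset of 100 (-1.10), after centring on the medians (-1.09) and after quantile normalization (-1.42).

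Neither cofactor gene was called on the deposited values. Meis1, whose protein binds DNA with HOXA9 and PBX3, read 13.7 and 13.2 units in B117P and 9.33 in B117HS. All 3 readings lay within 5 units of each other and below the median of all probes on their array. Its log2 difference was -0.10 (95% interval -0.39 to 0.20, limma adjusted p = 0.58), and 0.06 after scaling. Pbx3, which encodes the PBX partner of HOXA9 in leukaemia, read 169 and 211 units in B117P and 348 in B117HS. The resistant value was 2.06 and 1.65 times the sensitive ones. The log2 difference of 0.74 (SE 0.29, 95% interval 0.11 to 1.36, limma adjusted p = 0.051) missed both thresholds as deposited, and after scaling it was 1.43 (adjusted p = 0.025), which was called. Scaled values called 9.87% of all genes higher.

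The remaining Hoxa genes were at the dim end. Hoxa3, an anterior gene of the cluster, read 23.6 and 21.1 units in the sensitive cells and -6.22 in the resistant cells. Its log2 difference of -0.72 (SE 0.13, limma adjusted p = 0.00075) passed the p and not the size. An offset of 16 in place of 50 gave -1.97 and a call. Hoxa6 read 1.24 and 13.2 against 18.7 units, and its difference was 0.27 (95% interval -0.05 to 0.60, limma adjusted p = 0.15). Hoxa10, a posterior gene expressed in myeloid progenitors, read 9.94 and 15.8 against 6.22 units, a difference of -0.16 (95% interval -0.45 to 0.13, limma adjusted p = 0.35). For Hoxa6 and Hoxa10 the spread between the sensitive arrays was of the size of the difference.

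Set in chromosome order, the genes that fell ran from Hoxa4 to Hoxa9. Of 10 Hoxa genes measured, 4 fell, against 8.29% of all genes: Hoxa4, Hoxa5, Hoxa7 and Hoxa9. Hoxa4, which lies between Hoxa3 and Hoxa5, read 548 and 529 units in the sensitive cells and 28.0 in the resistant cells, which is -2.92 on the log2 scale (SE 0.28, adjusted p = 5.09e-06 in limma). Hoxa6, between Hoxa5 and Hoxa7, was the exception inside this stretch, on a probe that was dim on every array. At the anterior end Hoxa2 (60.9 and 63.3 against 7.78 units, difference -0.96, limma adjusted p = 0.0031) and Hoxa3 passed the p and not the size. A resistant reading of 0 would give Hoxa2 only -1.16 and Hoxa3 -0.53 with an offset of 50. With an offset of 16 both were called lower (-1.72 and -1.97), so the anterior edge of the stretch depends on the offset. At the posterior end Hoxa11 (-0.24) and Hoxa13 (-0.19) read below 10 units on every array, and both differences turned positive after centring on the medians (0.33 and 0.38). The resistant reading was below both sensitive readings for 9 of the 10, on an array that was dimmer as a whole. The share of all genes that did so was not counted. No Hoxa gene was called higher in limma, and none was higher at an unadjusted p under 0.05, against 7 that were lower at that p. Over all 17742 genes, 7945 were lower and 1802 higher at that p. The position of each probe in its transcript was not used here.

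**Figure D2:**
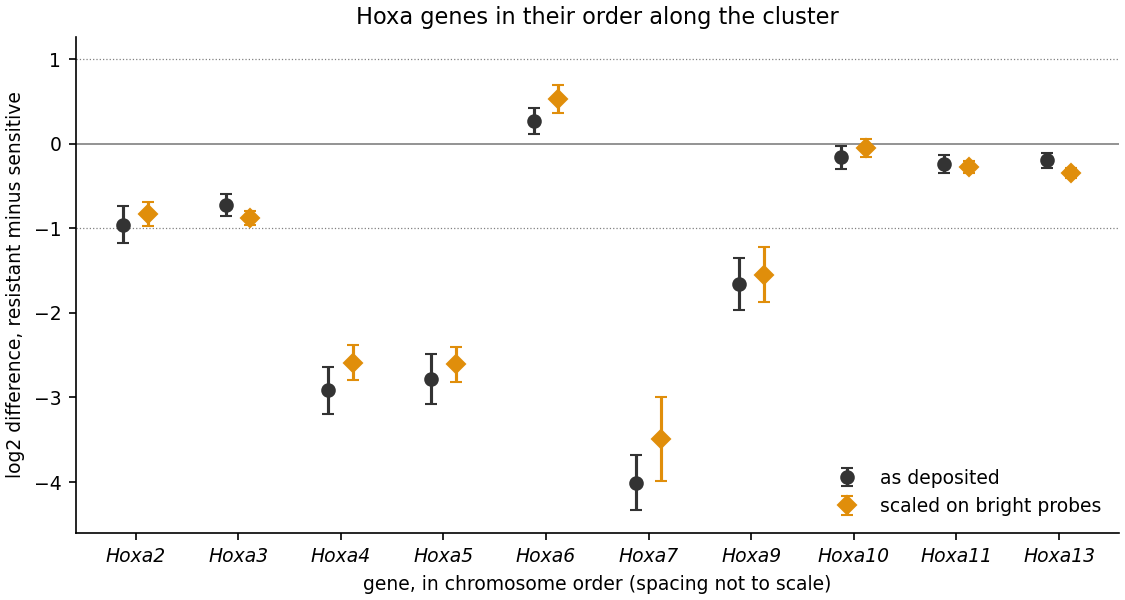
Log2 difference, resistant minus sensitive, of the 10 measured Hoxa genes in chromosome order (horizontal axis, spacing not to scale), with limma's standard error as bars; circles are values as deposited, diamonds after scaling on bright probes, and dotted lines mark a difference of 1. Hoxa4, Hoxa5, Hoxa7 and Hoxa9 lie below -1 on both scales, from -4.01 to -1.55, with Hoxa6 above 0 between them.

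The genes that flank the cluster held no gene called on both scales. Of 9 measured neighbours, 2 were called lower as deposited, 0 on both scales in limma (4 were lower at an unadjusted p under 0.05), and 2 were called higher after scaling alone. Over all genes 18.5% were called lower as deposited and 9.87% higher after scaling, and 7945 of 17742 were lower at that unadjusted p. The median of the neighbours was -0.60 as deposited and 0.02 after scaling. Skap2, an adaptor protein gene, went from 2624 ± 192 (SD, n = 2) to 736 units (-1.76 as deposited, -1.03 after scaling) and Snx10, a sorting nexin gene, from 1995 ± 6.98 to 786 (-1.29 and -0.55). Beside Meis1 and Pbx3, 0 of 10 measured genes were called in limma in either direction, while 7 were lower at an unadjusted p under 0.05, with a median of -0.61 as deposited and 0.00 after scaling. Actr2, an actin nucleator subunit gene, differed most among these (11972 and 10470 against 5553 units, -1.005).

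Among the other Hox genes, Hoxb8 rose from readings near 0. Of 32 other Hox genes measured, 14 read 50 units or less on every array. Hoxa4 fell and Hoxb8 rose, 1 gene in each direction, against 8.29% and 5.20% of all genes. After scaling 4 were called higher and 1 lower, when 9.87% of all genes were called higher. Hoxb8 encodes a factor that holds myeloid progenitors in an immature, growing state when expressed with interleukin-3. Its probe read -6.21 and -2.64 units in B117P and 594 in B117HS, which is 3.82 on the log2 scale (SE 0.25, adjusted p = 2.64e-07 in limma). Both sensitive readings were below 0 and could be failed spots, which the rise rests on, so the size depends on the offset and no fold is given. Hoxd3, at 462 and 356 against 187 units (-0.95 as deposited, -0.31 after scaling), was not called. The list median was -0.23 as deposited and -0.14 after scaling.

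Among 5 other TALE genes measured, Pbx4 fell and Meis2 rose. Pbx4, a close relative of Pbx3, read 1103 and 741 units in the sensitive cells and 18.7 in the resistant cells, which is -3.80 on the log2 scale (SE 0.29, adjusted p = 8.95e-07 in limma). Meis2, a close relative of Meis1, went from 14.9 and 9.23 to 91.8 units, a difference of 1.19 (SE 0.20, limma adjusted p = 0.00038). Its sensitive readings lay below the median of all probes on their arrays and the resistant reading above it. The call of Meis2 was lost with an offset of 100 (0.78) and with the floor of 50 (0.88). Pbx2, the widely expressed PBX gene, read 7892 and 9310 against 4111 units (-1.05 as deposited, -0.28 after scaling) and was not called. The PBX genes thus gave a fall for Pbx4, no call for Pbx2 and a call on the scaled values alone for Pbx3.

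Of the genes of activators of Hoxa transcription, Men1 was higher. Men1, which encodes menin, the adaptor that ties MLL to chromatin, rose from 1725 ± 90.2 (SD, n = 2) to 10903 units, which is 2.63 on the log2 scale (SE 0.20, adjusted p = 8.07e-07 in limma). Of 14 genes of the MLL, menin and DOT1L complexes, 1 rose, 2 were called lower as deposited and 0 lower calls held on both scales (4 genes were lower at an unadjusted p under 0.05 in limma). Of all genes, 18.5% were called lower as deposited, 8.29% fell and 5.20% rose, and 7945 of 17742 were lower at that unadjusted p. After scaling 4 of the 14 were called higher, against 9.87% of all genes. The genes lower as deposited were Kmt2b, an MLL paralogue (-1.75, and -1.02 after scaling), and Dot1l, the histone methyltransferase recruited by MLL fusion partners (-1.63 and -1.02), neither of which kept the size from each sensitive array after scaling. Ash2l, a core subunit of the MLL methyltransferases, went from 2219 ± 231 to 4340 units (0.96) and was called after scaling alone (1.72). Kmt2a, the MLL gene itself, was named after its values were seen. It read 1270 and 1141 against 549 units (-1.065 as deposited, -0.34 after scaling) and was not called. The list median was -0.36 as deposited and 0.28 after scaling.

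The repressors included 2 Polycomb genes that fell. The deposited values gave 6 of 12 Polycomb genes a lower call, against 18.5% of all genes. On both scales 2 kept it, against 8.29% of all genes. These were Ezh2 (-3.76), the catalytic subunit gene, and Eed (-2.40), which encodes a subunit that reads the methyl mark. Ezh1 (-1.50) and Ring1 (-1.34) were called as deposited only, and dimmer probes of Ring1 and Ezh1 differed by 0.31 and -0.85. Suz12, another Polycomb subunit gene, read 6560 and 6153 against 4494 units (-0.495 as deposited, 0.27 after scaling) and was not called. Bmi1 (-0.12 as deposited, 0.62 after scaling) was not called either. The list median was -1.08 as deposited and -0.41 after scaling. Among 9 Cdx genes and partner factors of HOXA9, 1 rose and 1 fell, against 5.20% and 8.29% of all genes. Stat5b rose from 596 ± 9.17 (SD, n = 2) to 2481 units (1.97). Spi1, the gene of the myeloid master factor PU.1, fell from 612 ± 30.2 to 109 (-2.06). Runx1 (-1.24) was called lower as deposited only, while its second probe differed by -2.74 (575 and 418 to 31.1 units). Cebpa, needed for HOXA9-driven leukaemia, went from 475 ± 151 to 961 units (0.98) with a call after scaling alone (1.72). Cdx2, named after its values were seen, went from 19.9 and 18.5 to 87.1 units (0.99), also called after scaling alone (1.52). Cdx1 and Cdx4, dim on every array, were not called on either scale. After scaling 3 of the 9 genes were called higher, against 9.87% of all genes.

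Genes known from other leukaemias as targets of HOXA9 and MEIS1 moved in both directions. Of 15 measured, 6 were called lower as deposited and 4 fell, while 3 rose, against backgrounds of 8.29% and 5.20% on both scales. Mef2c, a transcription factor gene of MLL leukaemia stem cells, fell from 3279 ± 810 (SD, n = 2) to 60.7 units (log2 difference -4.89, SE 0.25, limma adjusted p = 3.52e-08), and its second probe differed by -3.91. Sox4, a progenitor transcription factor gene, fell from 4847 ± 1065 to 198 units (-4.29). Id2, an inhibitor of helix-loop-helix factors, fell from 3180 ± 998 to 296 units (-3.19). The survival gene Bcl2 moved the other way, from 415 ± 20.8 to 3664 units (2.997), with 2.33 on its second probe. Chosen after their values were seen, the stem cell antigen gene Cd34 fell (9772 ± 829 to 1822 units, -2.39) and the growth factor receptor gene Igf1r (99.1 ± 27.7 to 1030 units, 2.87) and the transcription factor gene Hlf (1.24 and 6.60 to 96.4 units, 1.44) rose. Hlf rose from readings near 0, and its call was lost with an offset of 100 (0.92) and with the floor of 50 (0.95). Flt3, the receptor gene often named as a MEIS1 target, went from 2589 and 1388 to 260 units (-2.65), and after scaling its adjusted p was 0.053. The list median was -0.33 as deposited, the same as that of all genes, and 0.43 after scaling. The list came from general knowledge of other leukaemias, and no binding was measured in these cells.

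**Figure D3:**
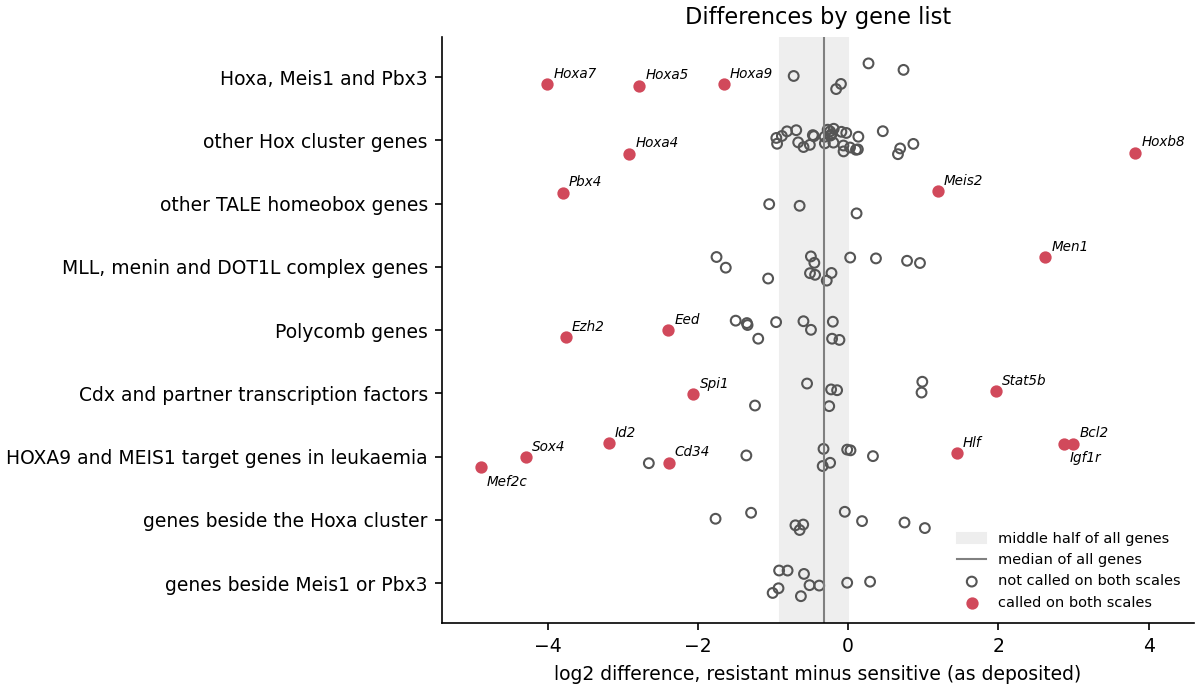
Log2 difference, resistant minus sensitive, as deposited (horizontal axis) for each measured gene of the lists (rows), 1 point per gene with vertical scatter for legibility; filled points were called on both scales, the vertical line is the median of all genes and the band their middle 50%. Hoxa7, Hoxa5 and Hoxa9 lie left of the band, as do Hoxa4, Pbx4, Ezh2, Eed, Spi1, Mef2c, Sox4, Id2 and Cd34, while Hoxb8, Meis2, Men1, Stat5b, Bcl2, Igf1r and Hlf lie to the right.

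By profile over the 3 arrays, the genes most like Hoxa9 were Nav1, Csrp1 and Col4a4. Likeness was the Euclidean distance between log2 profiles, each centred on its own mean, among genes of at least median intensity, and these distances were 0.008, 0.028 and 0.037. Nav1 read 170 and 292 units in the sensitive cells and 37.3 in the resistant cells. The genes most like Meis1 were Pdlim5 (288 and 285 against 264 units), Eaf1 and 0610009B22Rik, at distances of 0.003, 0.008 and 0.008. With only 3 arrays many genes share a profile.

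**Figure D4:**
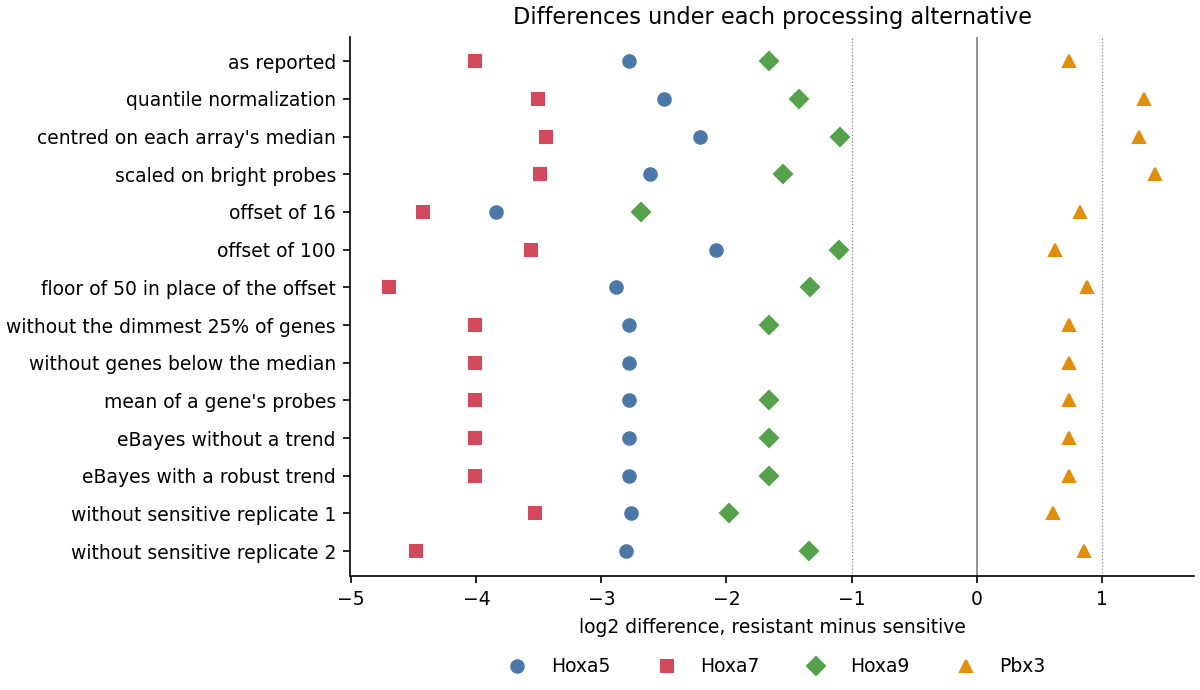
Log2 difference, resistant minus sensitive (horizontal axis), of Hoxa5, Hoxa7, Hoxa9 and Pbx3 under each processing alternative (rows), 1 point per gene and setting; dotted lines mark a difference of 1. Hoxa7 ranges from -4.70 to -3.44, Hoxa5 from -3.84 to -2.08, Hoxa9 from -2.68 to -1.09 and Pbx3 from 0.61 to 1.43; Hoxa9 has no point where genes below the median were left out.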

How the data were processed

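The authors deposited 1 table with a background-subtracted intensity per probe for 3 1-colour arrays (Cy5-labelled antisense RNA, per the labels' protocols). The labels name no scanner, image software or normalization. Of 26423 probes, 20377 had 1 gene symbol in the platform's annotation, 0 several and 6046 none. Of these symbols, 18213 matched a current RefSeq mouse gene (GRCm38.p6), 2126 an older name and 38 none. The probe with the highest mean log2 value stood for a gene, and 2278 of 17742 genes had several.

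limma 3.58.1 in R 4.3.3 (lmFit, eBayes with a variance trend) was fitted to log2(intensity + 50) over all genes, with 1 residual degree of freedom and 11.2 prior ones. Lists, promoter windows and plots were made with pandas 2.3.3, numpy 2.4.6 and matplotlib 3.10.9 under Python 3.11.15. The fit was tested on simulated data. The number of arrays limits the precision.

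All 8 members were named, and from each list the called genes (at most 4, by the smaller difference from the sensitive arrays) with up to 2 bright genes not called. Marker genes were named after their values were seen. The members and lists were chosen with earlier results of these data known. Alternatives are listed with their effects at the end.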

Additional observations from a re-analysis of the deposited data

How the results depend on the processing

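Each difference was recomputed under 15 alternatives, as far as a gene passed the filter. Hoxa5 kept its direction and call in all but the floor of 50 (-2.88, adjusted p = 0.080), and Hoxa7 in all but that floor (-4.70, adjusted p = 0.11) and quantile normalization (-3.51). Hoxa9 lost its call after quantile normalization (-1.42), centring on the medians (-1.09), with an offset of 100 (-1.10), the floor (-1.33) and a size of 2 (-1.66). It was left out by the filter at the median, and Hoxa3, Hoxa6, Hoxa10 and Meis1 by both filters on dim genes. Hoxa3 was called with an offset of 16 (-1.97) and a size of 0.6 (-0.72). Pbx3 was called after quantile normalization (1.34), centring (1.30) and scaling on bright probes (1.43). Hoxa10 (0.41), Hoxa11 (0.33) and Hoxa13 (0.38) turned positive after centring. Meis1 did so after quantile normalization (0.03), centring (0.47) and scaling (0.06), without a call. Of the 8 genes, 3 were called lower as deposited, 1 after quantile normalization and 0 with the floor, and 1 was called higher in place of 0 under each of the 3 rescalings. Over all genes, 926 higher and 3279 lower calls became 1751 and 1489 after scaling, 1597 and 1369 after centring, 131 and 26 with the floor, and 353 and 731 at a size of 2. Lower calls were 1215 after quantile normalization and 5509 at a size of 0.6. Leaving out either sensitive array left no residual degree of freedom, so only values could be had, and Hoxa7 (-4.48 and -3.53), Hoxa5 (-2.80 and -2.76) and Hoxa9 (-1.98 and -1.34) stayed past the size asked. Of 41 other genes recomputed, 2 values of 607 reversed (Hoxa11 and Hoxa13, above), and 82 values lost their call, 31 of them with the floor. With the floor, genes at or below 50 units on the sensitive arrays have no spread. No paired analysis was possible because the resistant group is 1 array with no replicate number.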

Other observations

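Other transcripts tied to these genes, chosen after their values were seen, were measured too. Pbxip1, which encodes a protein that binds PBX factors, read 940.5 and 942 units in B117P and 1974 in B117HS, a log2 difference of 1.03 (limma adjusted p = 0.0018), and 1.79 after scaling on bright probes, called on both scales. Mir196b, a microRNA gene between Hoxa9 and Hoxa10, read 18.6 and 15.8 units in B117P and 1.56 in B117HS (-0.38, adjusted p = 0.032, not called). Hoxa11os, an antisense transcript beside Hoxa11, read between -3.11 and 5.28 units on the arrays.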
